A study of Homo sapiens with 2 samples.

Results

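The 10 genes described here encode MYC, its obligate partner MAX, and the proteins that compete for MAX or share its relative MLX (MXD1, MXD3, MXD4, MXI1, MNT, MGA, MLX and MLXIP). They were taken by symbol from the authors' deposited table and joined by Entrez gene ID to the deposited counts, which held 25702 genes. RNA was sequenced in K562, an established human erythroleukemia line that carries the BCR-ABL1 fusion, grown as asynchronous cells in serum-supplemented medium. One culture was kept for 48 h in 1 µM cabozantinib (XL184), a drug that blocks several receptor kinases, among them MET and VEGF receptors, while the solvent DMSO alone was given to the other for the same time. Each group held 1 library, so the values below come with counting error and no replicate check, and no test of the conditions was possible.

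MYC is a basic helix-loop-helix leucine zipper factor that binds the sequence CACGTG, the E-box, only as a dimer with MAX, and it raises transcription of genes for ribosome synthesis, metabolism and the cell cycle. The MXD proteins, MNT and MGA bind the same sites with MAX and recruit repressors, the SIN3 and histone deacetylase complex for the MXD proteins and MNT, and a Polycomb complex (PRC1.6) for MGA. MLX is a relative of MAX that dimerises with MLXIP (MondoA), which responds to glucose metabolites, and also with some MXD proteins and MNT. In the erythroid lineage MYC is known to decline, and several MXD genes to increase, as cells mature.

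Promoter sequences are shown because these factors act through the E-box. Any link between an E-box and the ratios given below was not tested. RefSeq promoter windows on GRCh38.p14 were matched for 9 of the 10 genes (not MYC), 14 windows in all. The 250 bases before each annotated start were searched for CACGTG, which reads the same on both strands. It was found at MXD4, MNT and MLX, with 1 match each, and in 3 of the 14 windows. Over all 35116 windows 6.34% held it, and of 9706 measured genes with a window 11.3% did. The E-box is in capitals, and each sequence runs 5′ to 3′ on the gene's strand and ends at the base before the start.
MXD4, chr4:2262110-2262359, minus strand: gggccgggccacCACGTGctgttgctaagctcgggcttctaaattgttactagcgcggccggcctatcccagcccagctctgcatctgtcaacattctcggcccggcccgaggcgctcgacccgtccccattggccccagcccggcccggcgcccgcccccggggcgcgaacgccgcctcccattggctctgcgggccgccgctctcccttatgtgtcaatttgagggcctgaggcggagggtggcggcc
MNT, chr17:2401061-2401310, minus strand: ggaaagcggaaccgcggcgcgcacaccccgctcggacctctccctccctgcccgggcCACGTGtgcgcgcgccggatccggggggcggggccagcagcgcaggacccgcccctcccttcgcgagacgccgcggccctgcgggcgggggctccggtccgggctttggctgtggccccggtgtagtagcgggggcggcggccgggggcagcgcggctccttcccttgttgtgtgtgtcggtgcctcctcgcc
MLX, chr17:42566850-42567099, plus strand: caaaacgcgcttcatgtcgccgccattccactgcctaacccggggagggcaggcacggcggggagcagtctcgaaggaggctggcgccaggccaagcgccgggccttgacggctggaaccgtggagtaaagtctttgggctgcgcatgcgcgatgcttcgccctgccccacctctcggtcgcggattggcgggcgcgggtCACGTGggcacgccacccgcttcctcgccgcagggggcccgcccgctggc
The E-box began 238 bases before the start at MXD4, 193 before it at MNT and 50 before it at MLX. None of the 3 windows of MGA, the 3 of MXI1 or the 2 of MAX, nor the single windows of MXD1, MXD3 and MLXIP, held these letters. For MXD3 alone, the bases after the start were not found in an annotated transcript of the gene, so the placement of its window is less certain. A match describes the sequence and says nothing of binding in these cells.

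The DMSO library held 25025243 counts and the cabozantinib library 25505289. Levels are counts per 1e6 counts (CPM) after TMM scaling, and 12536 genes reached 1 CPM in either library and are called measured. All 14 erythroid markers were measured, and their summed level was 14939 CPM in DMSO and 43670 CPM with cabozantinib. The lymphocyte markers summed to 11.1 and 3.15 CPM (2 of 6 measured, MS4A1 at 0 in both libraries). CD3D carried that sum, with 247 and 59 counts, while NKG7 had 1 and 2. Granulocyte and monocyte markers summed to 40.9 and 16.8 CPM (2 of 7 measured, MPO and ELANE at 0). SPI1, with 582 and 187 counts, and LYZ, with 430 and 218, carried this sum, while CD14 had 5 and 6. Megakaryocyte markers summed to 25.5 and 121 CPM (2 of 5 measured, PF4, GP9 and GP1BA at 0). TUBB1 carried that sum, with 298 and 2838 counts, while ITGA2B went the other way, with 359 and 157 counts. Fibroblast and epithelial markers summed to 76.8 and 89.4 CPM (3 of 6 measured, KRT5 at 0). EPCAM carried this sum, with 1815 and 2133 counts, while COL1A2 had 86 and 16 counts and COL1A1 76 and 63. The part of these shifts in the values below was not tested, and in bulk RNA fewer cells of a type and less RNA per cell cannot be told apart.

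All 10 genes were measured in K562, and none differed by 1.5-fold between the libraries. By that rule, a ratio of at least 1.5 with an exact 95% counting interval that excluded no change, 0 of the 10 were higher against 8.15% of all measured genes, and 0 were lower against 12.3%. Scaling by total counts gave the same 0 and 0, beside 6.05% higher and 14.6% lower of all genes. The log2 ratios, cabozantinib over DMSO, ran from -0.18 for MXD1 to 0.48 for MGA, with a median of 0.07 beside 0.01 over all measured genes. Of the 10 genes, 8 lay between the quartiles of all measured genes, -0.29 and 0.27. The interval lay above no change for 4 genes (34.8% of all measured genes, at any size) and below it for 2 (32.1%). At a size of 2-fold the members again numbered 0 higher (2.71% of all measured genes) and 0 lower (5.76%). At a size of 25%, taken as the same ratio in each direction, 2 were higher (19.2%), MGA and MXD4, and 0 lower (20.5%). In the authors' deposited table the posterior probability of differential expression ran from 0.00214 for MYC to 0.0319 for MGA, and 0 of the 10 reached 0.95, against 4.66% of the 17392 genes there.

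**Figure D1:**
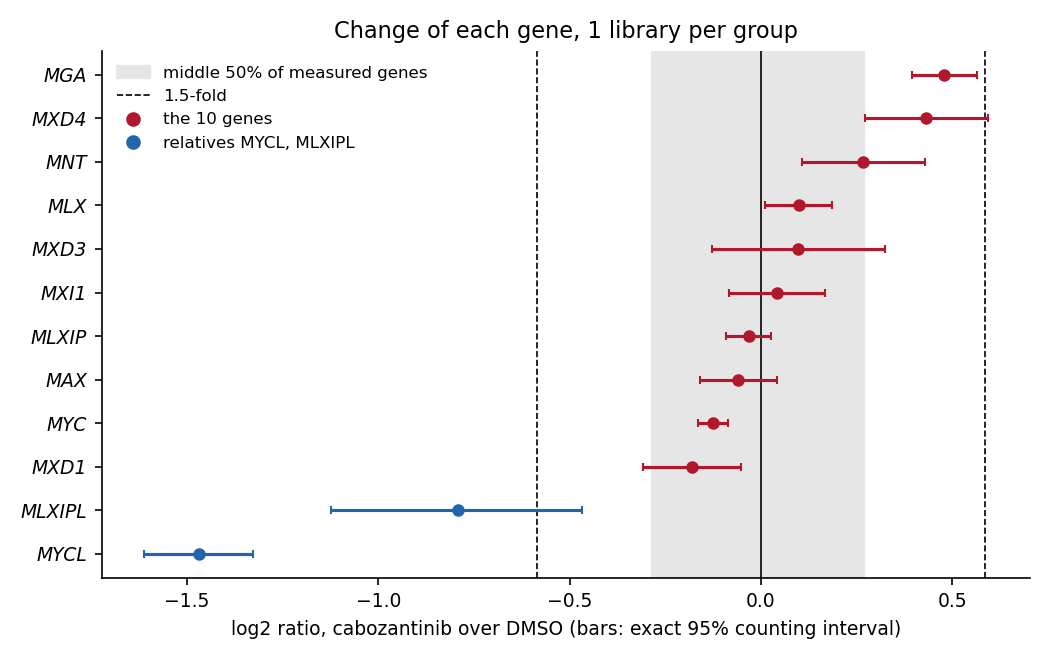
Log2 ratio, cabozantinib over DMSO, of the 10 genes (red) and the relatives MYCL and MLXIPL (blue), 1 library per group. Bars are exact 95% counting intervals, the grey band spans the quartiles of all measured genes (-0.29 to 0.27) and dashed lines mark 1.5-fold. MGA and MXD4 lie above the band but short of 1.5-fold, whereas MYCL, at -1.47, lies beyond it.

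MYC, the activator, had 10970 counts in DMSO and 9666 with cabozantinib, or 426 and 390 CPM. The cabozantinib library was lower by a small amount, 1.09-fold (1.06 to 1.12), a log2 ratio of -0.13 (-0.17 to -0.09). Of the measured genes, 36.9% had a lower ratio. The gene (Entrez 4609) lies on chromosome 8, where its long non-coding neighbour PVT1, often co-amplified with it in tumours, had 1490 and 1499 counts and a log2 ratio of 0.07 (-0.04 to 0.17).

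MAX, the shared partner (Entrez 4149, hg19 chromosome 14, 65472892 to 65569227, 8 exons), had 1709 and 1577 counts, 66.3 CPM in DMSO and 63.7 CPM with cabozantinib. Its log2 ratio of -0.06 (-0.16 to 0.04) was within counting error of no change. The ratio of MAX to MYC, taken inside each library and so free of scaling, also stayed within counting error, with an odds ratio of 1.05 (0.972 to 1.13). The deposited annotation shares 108 exon bases between MAX and the antisense MAX-AS1, which had 0 counts in both libraries.

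Among the antagonists MGA had the highest ratio. MGA (Entrez 23269, chromosome 15, 41952610 to 42062141, 24 exons) encodes a very large protein with a T-box as well as the MAX-binding domain. It had 1972 counts in DMSO and 2642 with cabozantinib, 76.5 and 107 CPM, 1.39-fold higher (1.31 to 1.48), and 12.2% of measured genes had a higher ratio. MXD4 (Entrez 10608, chromosome 4, 2249160 to 2263739, 6 exons), an MXD repressor known from differentiating cells, had 564 and 731 counts, 21.9 and 29.5 CPM. It was 1.35-fold higher (1.21 to 1.51), with 14.3% of measured genes above it. MNT (Entrez 4335, chromosome 17, 2287354 to 2304258, 6 exons), the broadly expressed antagonist found in cycling as well as resting cells, had 591 and 684 counts, 22.9 and 27.6 CPM, a log2 ratio of 0.27 (0.11 to 0.43). All 3 were higher beyond counting error and below 1.5-fold, although the interval of MXD4 reached 1.51.

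The other antagonists lay below no change or within counting error of it. MXD1 (Entrez 4084, chromosome 2, 70142203 to 70170077, 6 exons), the founding MXD gene and one known to increase in maturing myeloid cells, had 1087 counts in DMSO and 922 with cabozantinib, 42.2 and 37.2 CPM. It was the lowest of the 10, at 1.13-fold lower (1.04 to 1.24). MXI1 (Entrez 4601, chromosome 10, 111967363 to 112047123, 8 exons), also known as MXD2, had 1036 and 1025 counts and a log2 ratio of 0.04 (-0.08 to 0.17), which became -0.04 under scaling by total counts. MXD3 (Entrez 83463, chromosome 5, 176732501 to 176739292, 7 exons), the MXD gene linked to S phase, had the fewest counts, 321 and 330, and a log2 ratio of 0.10 (-0.13 to 0.32). It shares 721 exon bases with PRELID1 on the opposite strand, which had 4469 and 4708 counts. The sources used here do not say whether counting used strand, so the value of MXD3 is uncertain.

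In the MLX arm, MLX (Entrez 6945, chromosome 17, 40719078 to 40725221, 8 exons) had 2100 counts in DMSO and 2162 with cabozantinib, 81.5 and 87.3 CPM. Its log2 ratio was 0.10 (0.01 to 0.19), an interval that excluded no change only narrowly. Under scaling by upper quartile or by total counts the interval held no change, and under total counts the log2 ratio was 0.01. MLX shares 774 exon bases with PSMC3IP on the opposite strand, which had 936 and 812 counts, so its value is uncertain in the same way. MLXIP (Entrez 22877, chromosome 12, 122516760 to 122628989, 17 exons), the glucose-responsive partner, had 4789 and 4502 counts, 186 and 182 CPM, and a log2 ratio of -0.03 (-0.09 to 0.03). Relative to MLX inside each library, MLXIP was lower with cabozantinib, with an odds ratio of 0.913 (0.849 to 0.982).

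Placed in order of their log2 ratios (MGA, MXD4, MNT, MLX, MXD3, MXI1, MLXIP, MAX, MYC, MXD1), neighbouring genes could not be separated, since all 9 intervals of the neighbours' odds ratios held 1. Genes farther apart did differ. Set against MYC inside each library, 6 of the 9 other genes had shifted upward beyond counting error and none downward, beside 46.5% upward and 22.3% downward of the 12535 other measured genes. MGA relative to MYC was 1.52 times its value in DMSO (1.42 to 1.62), MXD4 1.47 times (1.31 to 1.65) and MNT 1.31 times (1.17 to 1.47). MLX (1.17), MXI1 (1.12) and MLXIP (1.07) shifted less, and the intervals of MAX, MXD1 and MXD3 held 1. Set against MAX, 4 of 8 genes (MGA, MXD4, MNT and MLX) had shifted upward and none downward, beside 36.8% and 24.8% of the other measured genes. The 9 comparisons with MYC share the counts of MYC, and these intervals cover counting error only.

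Levels were compared between genes per kilobase of deposited gene length. MYC was far above the rest, at 180 CPM per kilobase in DMSO (177 to 183) and 165 with cabozantinib (162 to 168), a level exceeded by 2.74% and 3.14% of measured genes. In DMSO the order below it was MLXIP (34.3), MLX (31.8), MAX (23.0), MXI1 (10.5), MXD1 (7.55), MGA (6.36), MXD4 (5.80), MNT (4.74) and MXD3 (3.94 CPM per kilobase). Of the 9 neighbouring pairs in that order, 8 differed beyond counting error and MGA and MXD4 did not. With cabozantinib MGA (8.86) and MXD4 (7.82) stood above MXD1 (6.66 CPM per kilobase). MLX (34.1) and MLXIP (33.6) could not be ranked there, the other 8 pairs could, and MXD3 remained lowest at 4.21 CPM per kilobase.

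**Figure D2:**
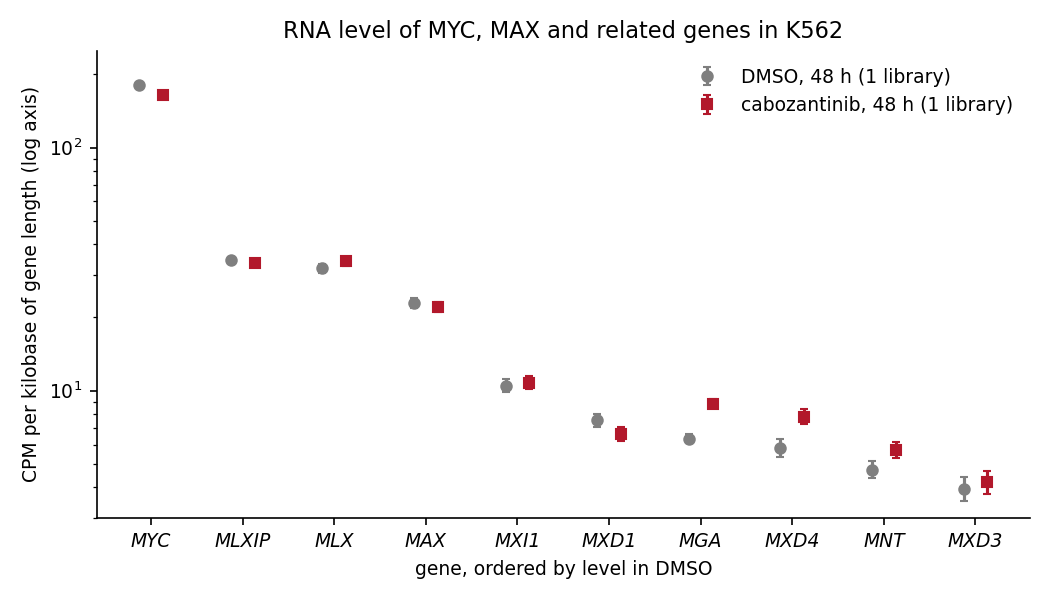
Level of each gene in CPM per kilobase of gene length (log axis), in order of the DMSO level, for the DMSO library (grey circles) and the cabozantinib library (red squares), with exact 95% Poisson intervals. MYC sits at 180 and 165, 5.24 and 4.84 times the next gene, and MGA and MXD4 pass MXD1 in the cabozantinib library.

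Summed over the 6 antagonists that bind MAX, the balance against MYC moved by a modest amount. They held 5571 counts against 10970 of MYC in DMSO and 6334 against 9666 with cabozantinib, a ratio of 0.508 and 0.655. The odds ratio of 1.29 (1.23 to 1.35) needs no scaling between libraries. Of the 12535 other measured genes taken singly, 46.5% also shifted upward against MYC beyond counting error and 22.3% downward. In log2 ratio MYC stood at -0.13 and the median measured gene at 0.01. Without MGA, which has the longest RNA and supplied the most counts, it was 1.16 (1.10 to 1.23), and over MXI1 and MXD1 alone 1.04 (0.972 to 1.11), which held no change. Per kilobase, MYC was 4.63 times the sum of the 6 in DMSO and 3.74 times with cabozantinib. MYC RNA exceeded their joint level in both libraries. MYC stood at 7.81 times MAX in DMSO and 7.46 times with cabozantinib, and the antagonists together at 1.69 and 1.99 times MAX, per kilobase.

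**Figure D3:**
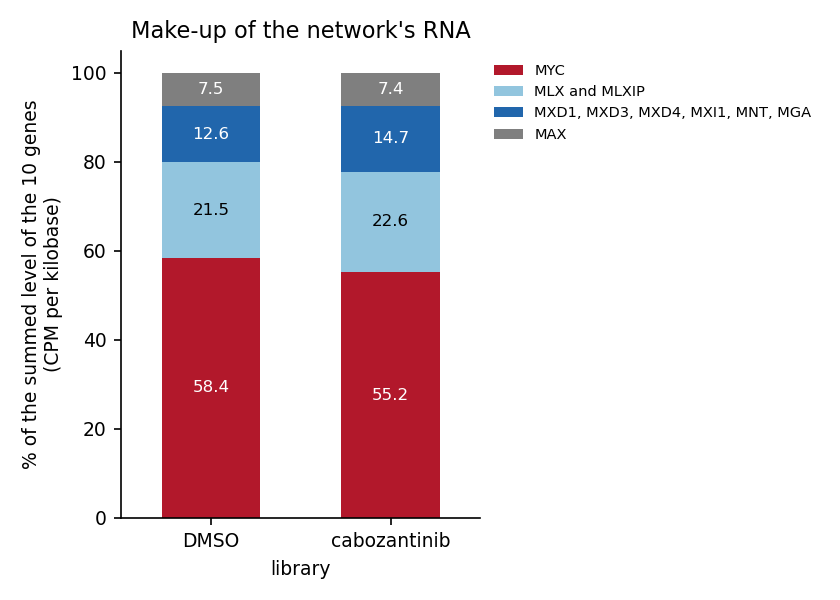
Share of the summed level of the 10 genes (CPM per kilobase, in percent) taken by MYC, by MLX with MLXIP, by the 6 antagonists that bind MAX and by MAX, in each library. MYC takes 58.4% in DMSO and 55.2% with cabozantinib, and the antagonists 12.6% and 14.7%.

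MYCL and MLXIPL, relatives outside the 10 genes, were both lower past 1.5-fold. MYCL (Entrez 4610, chromosome 1, 40361096 to 40367687), a MYC paralog that also needs MAX, had 1579 counts in DMSO and 548 with cabozantinib, 61.3 and 22.1 CPM. It was 2.77-fold lower (2.51 to 3.06), with 2.68% of measured genes below it, and the authors' deposited table gave it a posterior probability of 1 and a fold of 0.359. Per kilobase MYCL stood at 12.4 in DMSO, above each of the 6 antagonists, and at 4.47 with cabozantinib, below all of them but MXD3. MYCN, the neuronal paralog, was at 0 counts in each library, where a count of 0 is compatible with up to 3. MLXIPL (ChREBP), the liver-type partner of MLX, had 220 and 122 counts and was 1.73-fold lower (1.38 to 2.18), from 8.54 to 4.93 CPM.

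The partners and regulators of the network were read from lists chosen with earlier results of these data known, so their counts are descriptions, set beside 8.15% higher and 12.3% lower over all measured genes. Of 18 measured SIN3 complex genes, the corepressor of the MXD proteins, 0 were higher and 0 lower by 1.5-fold, and the median log2 ratio was 0.25. RBBP7, its histone-binding subunit and the list's highest level per length in DMSO, had 263 and 310 CPM. Of 19 MYC coactivators 2 were higher and 1 lower (median 0.17). The acetyltransferase KAT2B was 1.81-fold higher (1.69 to 1.94), and KAT2A, also an acetyltransferase, was 1.51-fold higher (1.33 to 1.71), a call lost under each of the 3 other scalings. ZBTB17, which encodes MIZ1, the factor through which MYC represses genes, was 1.53-fold lower (1.41 to 1.66).

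Of 23 measured genes of MYC protein turnover 1 was higher and 2 lower, and the median log2 ratio was 0.12. PIM1, a kinase that phosphorylates and stabilises MYC, went from 1587 to 569 CPM, 2.79-fold lower (2.74 to 2.84). PPP2R5A, a regulatory subunit of the phosphatase PP2A, was 1.87-fold lower (1.78 to 1.97), and CIP2A, which inhibits PP2A acting on MYC, was 1.55-fold higher (1.44 to 1.67), short of 1.5-fold under scaling by total counts. Of 24 regulators of MYC transcription and mRNA 1 was higher and 1 lower (median 0.14). These were ZFP36L2, which binds AU-rich elements of mRNAs and was 2.07-fold higher (1.94 to 2.20), and MYB, a factor of immature progenitors, 1.77-fold lower (1.70 to 1.84).

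Of 55 genes that MYC is known to activate, 13 (23.6%) were higher and 1 (1.82%) lower. Their median log2 ratio was 0.30, and 47 were above 0. Under scaling by total counts 10 were higher. UTP20, of ribosomal RNA processing, was 1.98-fold higher (1.83 to 2.13), PPRC1, a coactivator of mitochondrial gene expression, 1.82-fold (1.71 to 1.95), and MCM4, of the replicative helicase, 1.64-fold. The lower gene, the D cyclin CCND2, was 2.26-fold lower (2.09 to 2.45). MYC itself had a log2 ratio of -0.13. Of 20 proliferation markers 3 were higher and 0 lower in the same libraries (median 0.38), PCNA at 1.68-fold, RRM2 at 1.54-fold and MKI67 at 1.51-fold, and under scaling by total counts PCNA alone passed. Several genes of the activated list are also replication genes, and the part of proliferation in its values was not tested. Of 7 measured genes that MYC is known to repress, 1 was higher and 3 lower (median -0.74). That median was -0.11 with a filter at 5 CPM and also with no filter, so it depends on which low genes are kept. The number lower moved too. It was 4 of 7 under scaling by total counts, DESeq2 size factors or upper quartile, and 2 of 5 with the filter at 5 CPM. NDRG2 was 1.99-fold higher (1.85 to 2.15), while the cell cycle inhibitor CDKN1A was 2.54-fold lower (1.98 to 3.31), the growth-arrest gene GADD45A 1.94-fold lower (1.85 to 2.04) and NDRG1 1.67-fold lower (1.17 to 2.42).

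**Figure D4:**
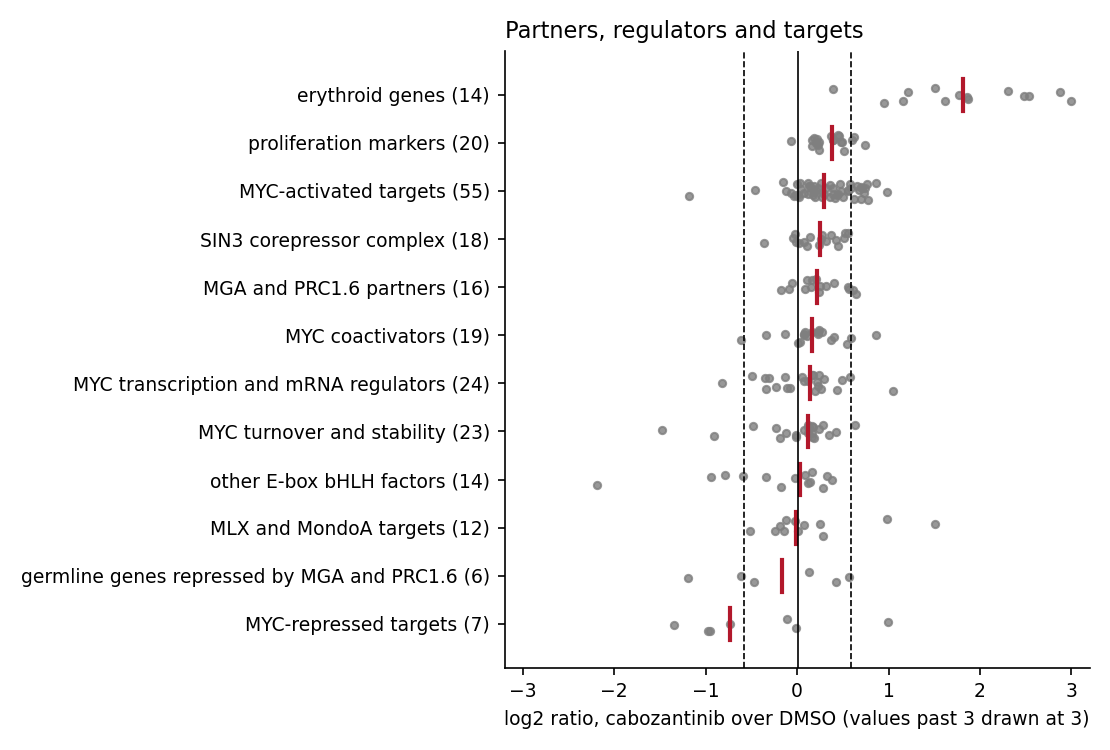
Log2 ratio, cabozantinib over DMSO, of each measured gene (grey points, spread vertically for legibility) in the lists of partners, regulators and targets, with the number measured in brackets. Red bars are list medians, the solid line is the median of all measured genes (0.01) and dashed lines mark 1.5-fold. The erythroid list stands at 1.81, the MYC-activated list at 0.30 and the MYC-repressed list at -0.74, which was -0.11 with no filter on low counts.

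Of 12 targets of MLX with MondoA or ChREBP 2 were higher and 0 lower, and the median log2 ratio was -0.01. TXNIP, the best known MondoA target and an inhibitor of glucose uptake, went from 9964 to 8382 counts, at a log2 ratio of -0.19 (-0.23 to -0.15). Its relative ARRDC4 had 2313 and 1561 counts and was 1.42-fold lower (1.34 to 1.52), short of the rule, although it passed under scaling by total counts. The higher members were ARRDC2 at 1.98-fold (1.80 to 2.17) and PKLR at 2.85-fold (2.73 to 2.98). PKLR encodes the pyruvate kinase of liver and red cells, and in these libraries 13 of 14 erythroid genes were also higher, with a median log2 ratio of 1.81. The part of that shift in the value of PKLR was not tested.

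Of 16 partners of MGA in the PRC1.6 complex 2 were higher and 0 lower (median log2 ratio 0.22), the histone methyltransferase gene EHMT2 at 1.56-fold (1.40 to 1.75) and L3MBTL2, a defining subunit, at 1.53-fold (1.40 to 1.68). Neither passed under scaling by total counts. Of 20 genes listed as germline genes repressed by this complex, 14 were below 1 CPM in both libraries and 6 of these had 0 counts in both. Of the 6 measured, 0 were higher and 2 lower, STAG3 on 91 and 38 counts at 2.28-fold (1.56 to 3.46) and ZCWPW1 on 77 and 48 counts at 1.54-fold (1.06 to 2.26). Their median log2 ratio of -0.17 became 0.13 when only genes at 5 CPM or more were kept, and 0.16 when all with a count were. MEIOB had the most counts of the list, 2612 in DMSO and 3382 with cabozantinib (101 and 137 CPM). Its log2 ratio was 0.43 (0.36 to 0.50), short of 1.5-fold. TDRKH, with 923 and 642 counts, went the other way at -0.47 (-0.61 to -0.32), also short of 1.5-fold.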

How the data were processed

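The authors deposited counts of reads by Entrez gene, as whole numbers, with 1 file a library. Reads were aligned with Rsubread to hg19, per the file headers, and libraries were strand-specific TruSeq, per the labels' protocols. Both hg19 and GRCh37 are named in the submitters' processing notes. For the tool version, strand setting and multi-mapped reads nothing is given in the sources used here. The authors' deposited table holds a posterior probability of differential expression (a score from 0 to 1) and a shrunken fold ratio, read as cabozantinib over DMSO from the counts. Its 4 columns of values per library were not used.

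Counts were scaled with TMM factors (edgeR 4.0.16, R 4.3.3). The log2 ratio used a pseudocount of 0.5, and its 95% interval came from the Clopper-Pearson limits of the cabozantinib share of both counts. Ratios between genes inside libraries have exact conditional 95% intervals. All intervals cover counting error only. Each group held 1 library, so no p-value was computed. Calculations used Python 3.11.15 with numpy 2.4.6, scipy 1.17.1 and pandas 2.3.3, and were tested on simulated counts.

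The members and lists were chosen with earlier results of these data known. The text names all 10 genes, MYCN, MYCL, MLXIPL, PVT1, TXNIP and ARRDC4 whatever their values, and per list up to 3 called genes each way by the interval bound nearest no change, or the highest level per length in DMSO where none was called. For the genes with the highest and lowest ratio it also names the 3 protein-coding genes nearest in log2 ratio at a like mean CPM (within 25% either way, as a ratio). ARNTL, MEIOB, TDRKH, cell type markers given with their counts, neighbours on the chromosome and genes sharing exons were named after their values were seen. Alternatives covered scaling (DESeq2 1.42.0 size factors, upper quartile, total counts), pseudocount, filter, size and the deposited fold.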

Additional observations from a re-analysis of the deposited data

How the results depend on the processing

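No member was called at 1.5-fold in either direction under total-count, DESeq2 or upper-quartile scaling, a pseudocount of 1, a 5 CPM filter, no filter, the deposited fold or a size of 2-fold. At a size of 25% 2 were higher (MGA and MXD4, against 19.2% of measured genes) and 0 lower (20.5%). Scaling by total counts lowered every log2 ratio by 0.08. Medians of the gene lists fell with it, to 0.16 for the SIN3 complex, 0.08 for coactivators, 0.04 for turnover, 0.05 for transcription and mRNA regulators, 0.14 for PRC1.6 partners and -0.09 for MLX and MondoA targets. It left 3 intervals above no change instead of 4 and put 4 below instead of 2, adding MAX and MLXIP, and upper-quartile scaling also left 3 above. These counts were chosen after seeing the data. The odds ratio of antagonists over MYC was 1.16 without MGA, 1.13 over MXD1, MXD3, MXD4 and MXI1, and 1.04 over MXI1 and MXD1. Taken per kilobase as a plain ratio of sums, which has no interval, the change was 1.24. No paired analysis was possible because each group has 1 library, and no library could be left out. With 321 counts, MXD3 had the widest interval of the 10, -0.13 to 0.32 on the log2 scale, and changes inside it were not detectable at this depth.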

Other observations

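Other bHLH factors, which bind E-boxes or related sites without MAX, included several lower genes. Of 14 measured 0 were higher and 4 lower by 1.5-fold, against 8.15% and 12.3% of all measured genes, with a median log2 ratio of 0.03 that became -0.05 under scaling by total counts. HES1, a repressor downstream of Notch, went from 630 to 132 counts and was 4.57-fold lower (3.80 to 5.58). BHLHE40, a repressor induced by stress and hypoxia, was 1.92-fold lower (1.78 to 2.07), and TFE3, which controls lysosomal genes, 1.51-fold lower (1.39 to 1.65). ARNTL, a clock factor, was the other lower gene, on 56 and 31 counts.

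The nearest measured genes on either side of the 10 numbered 20, with a median log2 ratio of -0.01. Of these 1 was higher and 1 lower by 1.5-fold, beside 8.15% and 12.3% of all measured genes. The higher one was METTL16, 15084 bases from MNT, at a log2 ratio of 0.62 (0.49 to 0.74), and on the other side of MNT SGSM2 was at 0.43 (0.29 to 0.57), beside 0.27 for MNT. FUT8, 308612 bases from MAX, was the lower one at -1.20 (-1.47 to -0.93). The neighbours of MGA on either side, TYRO3 and MAPKBP1, were at 0.13 and -0.38, and those of MXD4, HAUS3 and ZFYVE28, at 0.22 and -0.32.

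Among protein-coding genes of like level, those nearest to MGA in log2 ratio were KEAP1, NUP85 and HIPK2, each at 0.48, and those nearest to MXD1 were RAD17, PRKCQ and TTC7A, each at -0.18. Likeness over 2 libraries is a single ratio, and 1316 and 1361 genes were candidates.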
